A study of Homo sapiens with 12 samples.

Results

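Chloramphenicol (CAP) was compared with its ethanol solvent (EtOH) over all 19112 genes of a genome-wide CRISPR knockout screen in HEK293 cells, an established human embryonic kidney line. The comparison used 6 of the 12 samples of the screen, 3 independent replicates grown for 15 days in 5 µg/mL chloramphenicol and 3 grown for the same time in ethanol, and no measured value entered the choice of genes. The other samples, 3 in 15 µM actinonin (ACT) and 3 in both drugs (ACT CAP), served only to set the CAP values beside those of another drug of mitochondrial translation. Cells were infected with the Brunello guide library in 3 independent replicates, selected with puromycin and expanded. The resulting pool was divided into the 4 conditions before any drug was added. Whether replicates of different conditions shared an infection is not stated. The medium held glutamine, pyruvate and uridine. The cell line is a single transformed line, so the genes it needs are those of this line in this medium.

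A few core subunits of the respiratory chain and of ATP synthase are encoded by mitochondrial DNA and made on mitochondrial ribosomes, which descend from bacterial ones. Chloramphenicol, an antibiotic, acts on either kind. Cells that cannot respire make their ATP by glycolysis, which turns glucose into pyruvate and lactate in the cytosol, while the pentose phosphate pathway branches off to supply NADPH and ribose. The cytosolic ribosome is of another kind and is largely spared by the drug. In a pooled knockout screen each cell loses 1 gene, and the share of its guides after growth tells whether that loss helped or harmed the cell. The question of the comparison was which losses mattered more, or less, once mitochondrial translation was inhibited.

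The measure was the beta of each gene and condition, the change in guide abundance fitted by the authors over the replicates and over 76441 guides, 4 per gene in 19103 of the genes. A beta below 0 means that guides were lost, and its reference sample is not named in the table. Only 1 beta per gene and condition was used, with the standard error of the fit (SE), so the spread between single replicates is not shown and every ± below is that SE. A gene was called where its difference in beta, CAP minus EtOH, divided by its SE and then centred on the median of all genes and scaled by their median absolute deviation (the Wald difference), passed an adjusted p of 0.05 over all genes, which took a Wald difference of at least 3.85 in size. A gene called higher is termed a suppressor, because its beta was higher in CAP than in EtOH. A gene called lower is termed synthetic sick, because its beta was lower in CAP. Both terms are relative to EtOH, so a synthetic sick gene need not be costly to lose in CAP.

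CAP gave 36 suppressors (0.188% of genes) and 12 synthetic sick genes (0.0628%). Counts of called genes in the lists below are to be read beside these shares. The synthetic sick genes were led by glucose uptake, the first steps of glycolysis and the pentose phosphate pathway, with HK1, GPI, RPE, SLC2A1, PFKP and TKT as the 6 with the largest Wald difference. The suppressors were led by PDE12, which removes poly(A) tails from mitochondrial RNA, and IDH3B, a subunit of the isocitrate dehydrogenase of the tricarboxylic acid (TCA) cycle, followed by WDR81, E2F4, BEND3 and RHOQ. All 36 suppressors had a beta below 0 in EtOH (median -0.526) and a median beta of -0.173 in CAP. Of all genes only 7.29% had a beta above 0 in EtOH, and the EtOH beta enters the difference that picked the suppressors. In 8 of the 36 the beta in CAP was above 0, against 9.40% of all genes, but the CAP beta enters that difference too.

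The smallest called difference in beta among the suppressors was 0.215 and the largest 0.943. Among the synthetic sick genes the differences ran from -0.193 to -1.33, and the median beta was -0.324 in EtOH and -0.931 in CAP. None of them had a beta above 0 in CAP, where 9.40% of all genes did, but the CAP beta enters the difference that picked them. Just inside the threshold lay VAT1L (Wald difference 3.85) and SLCO6A1 (-3.85), and just outside it the telomere protein ACD (3.79) and the interleukin receptor IL1R2 (-3.77). By a looser rule on the deposited z, which is beta over its SE and not a score averaged over guides, with a z difference of 3 or more or of -3 or less (the z rule), 216 genes (1.13%) were suppressors and 35 (0.183%) synthetic sick.

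Over all genes the median beta was -0.157 in EtOH and -0.139 in CAP, so a beta near these values is that of a typical gene. The median difference in beta was 0.0230, and 61.1% of genes lay above 0. For 190 core genes of the cytosolic ribosome, proteasome, spliceosome and DNA replication, the median CAP beta divided by the median EtOH beta was 0.861. With the trend of the difference on the EtOH beta removed by a local regression, 12 genes were called higher, 11 of them among the 36 suppressors, and 11 were called lower, 7 of them among the 12 synthetic sick genes. The 11 suppressors called in both fits were PDE12, IDH3B, WDR81, E2F4, BEND3, RHOQ, DNAH9, HSPH1, SULT1A4, ATXN2L and VAT1L. Against an unscaled normal null only PDE12 and HK1 passed.

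**Figure D1:**
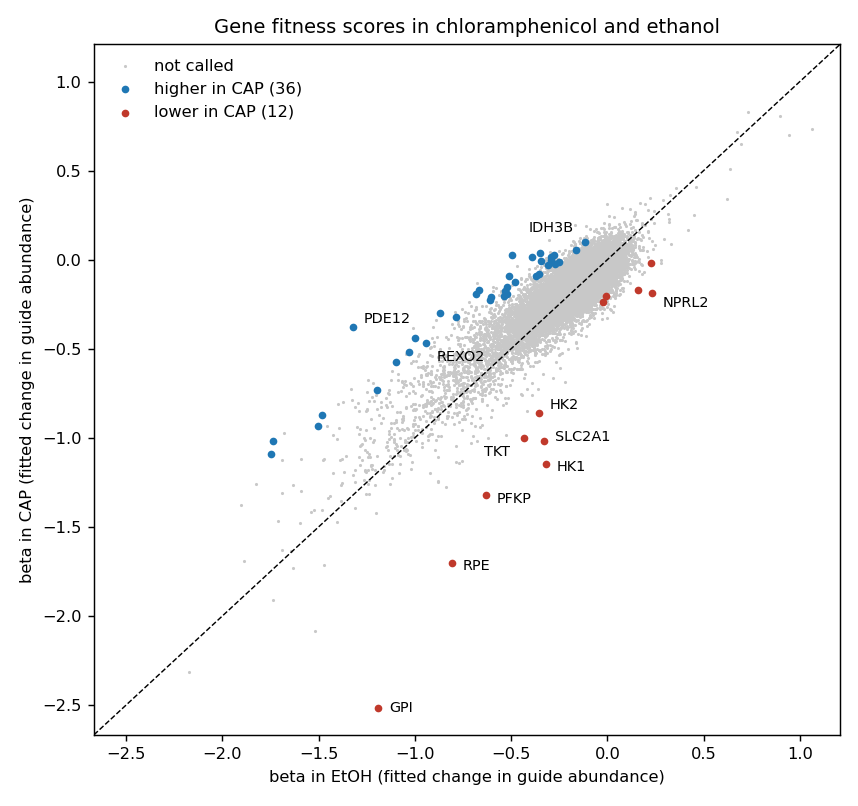
Each point is 1 of 19112 genes, placed by its beta (fitted change in guide abundance, no unit) in EtOH on the horizontal axis and in CAP on the vertical axis, with the dashed line marking equal values. The 12 synthetic sick genes, in red, lie furthest below the line at GPI (-1.19 in EtOH and -2.52 in CAP). The 36 suppressors, in blue, lie above it, all with a beta below 0 in EtOH, as most genes had.

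Glucose enters the cell through transporters and is trapped by hexokinases. SLC2A1, which encodes the transporter GLUT1, had a beta of -0.331 ± 0.126 in EtOH and -1.02 ± 0.127 in CAP, a difference of -0.685 ± 0.179 (Wald difference -5.63). HK1, the hexokinase held at the outer mitochondrial membrane, went from -0.318 ± 0.127 to -1.15 ± 0.129, a difference of -0.829 ± 0.180 (Wald difference -6.71, the lowest of all genes). HK2, the inducible hexokinase, had nearly the same beta as HK1 in EtOH, -0.356 ± 0.128, and reached -0.859 ± 0.129 in CAP, a smaller difference of -0.503 ± 0.182 (Wald difference -4.14). Loss of either hexokinase was thus called in CAP, each with the other gene intact. SLC2A3, which encodes the transporter GLUT3, was not called and had about the same beta in EtOH and CAP (-0.177 and -0.187, difference -0.00996 ± 0.0962).

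GPI turns glucose phosphate into fructose phosphate and stands alone at its step. Its beta was -1.19 ± 0.220 in EtOH and -2.52 ± 0.221 in CAP, the largest difference in beta of all genes at -1.33 ± 0.312 (Wald difference -6.22). PFKP, the platelet type of phosphofructokinase, which commits sugar to glycolysis, went from -0.632 ± 0.136 to -1.32 ± 0.138, a difference of -0.692 ± 0.194 (Wald difference -5.27). The other phosphofructokinase genes were not called, with a difference of 0.152 ± 0.127 for PFKL, the liver type, and -0.0484 ± 0.133 for PFKM, the muscle type. In EtOH these paralogues were also close to 0, at -0.157 and -0.104.

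Below phosphofructokinase no gene of the pathway was called. The aldolase ALDOA had a difference of -0.277 ± 0.202 (Wald difference -2.20) and the enolase ENO1 of -0.441 ± 0.235 (Wald difference -2.90), whereas the neuronal forms ALDOC and ENO2 had differences of 0.0857 ± 0.0691 and 0.134 ± 0.0781. TPI1, the triose phosphate isomerase, singled out after its values were seen, had the largest of the uncalled differences, -0.568 ± 0.294, from an EtOH beta of -1.52 (Wald difference -2.98). It was called once the trend with the EtOH beta was removed (Wald difference -4.09). PGK1 and PGAM1, singled out in the same way, were costly to lose in either condition, with betas of -1.24 and -0.928 in EtOH and -1.18 and -0.984 in CAP.

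In all, 5 of 23 genes of glucose uptake and glycolysis were synthetic sick, beside 0.0628% of all genes. None was a suppressor and 18 were not called. The list's median beta was -0.331 in EtOH and -0.806 in CAP, while its median difference was -0.0558, against 0.0230 over all genes, and 9 of the 23 had a difference above 0. The called members were 2 hexokinases, a transporter, an isomerase and a phosphofructokinase, all at or above the step that commits sugar to glycolysis.

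Lactate dehydrogenase, which turns pyruvate into lactate and returns NAD, is made from LDHA and LDHB. The differences were 0.00741 ± 0.118 for LDHA and 0.0247 ± 0.112 for LDHB, with betas between -0.220 and -0.149 in either condition. SLC16A1, the lactate carrier MCT1, had a difference of -0.265 ± 0.151 that was not called (Wald difference -2.74), and its paralogue SLC16A3, the carrier MCT4, had 0.0593 ± 0.130. None of the 9 genes of lactate handling was called, and their median difference was 0.0102.

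The non-oxidative branch of the pentose phosphate pathway exchanges carbon between pentoses and the sugars of glycolysis. RPE, the epimerase of ribulose phosphate, had a beta of -0.809 ± 0.162 in EtOH and -1.70 ± 0.164 in CAP, a difference of -0.891 ± 0.230 (Wald difference -5.69). TKT, the transketolase of the same branch, went from -0.433 ± 0.115 to -1.003 ± 0.116, a difference of -0.571 ± 0.163 (Wald difference -5.17). PGD, the phosphogluconate dehydrogenase of the oxidative branch, had a difference of -0.244 ± 0.176 and was not called (Wald difference -2.22). Of 11 genes of the pathway 2 were synthetic sick, beside 0.0628% of all genes, and 9 were not called. Only 1 of the 11 had a difference above 0, the transketolase-like gene TKTL1 (0.135 ± 0.0958). The list's median difference was -0.0902.

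These 7 genes kept their call, with larger Wald differences, once the trend with the EtOH beta was removed, the least of them HK2 (-4.83) and the largest HK1 (-7.60). The other 5 synthetic sick genes, NPRL2, OSTN, XPO7, ZNF300 and SLCO6A1, did not pass in that fit.

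**Figure D2:**
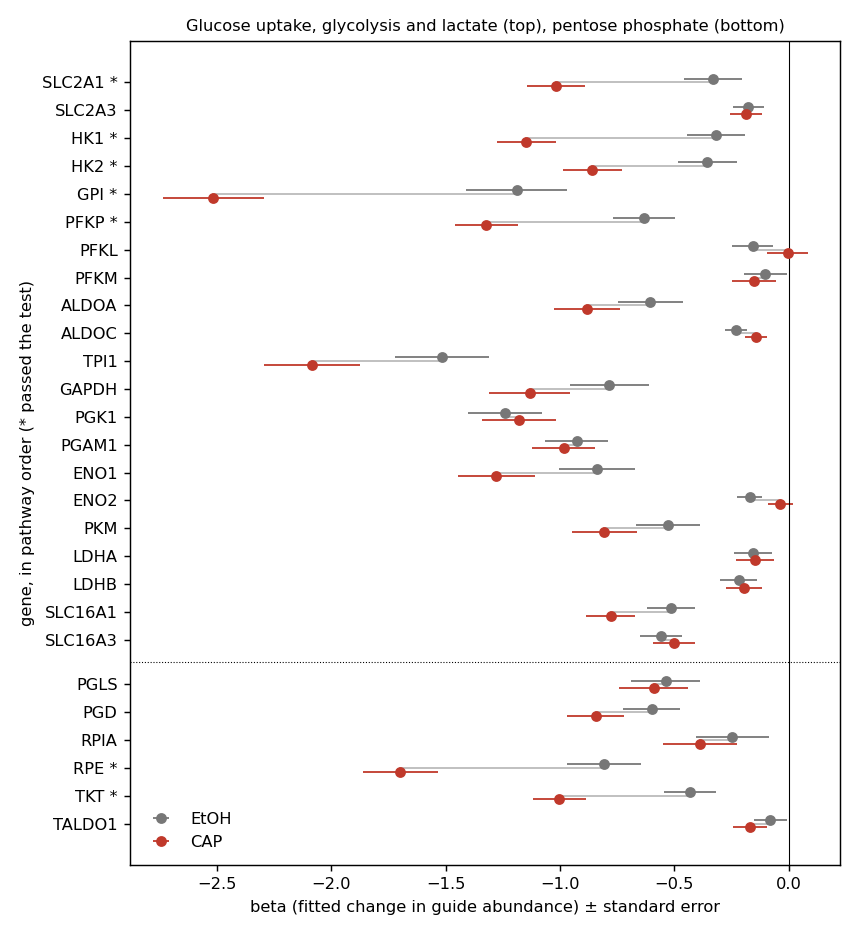
The beta of each gene in EtOH (grey) and CAP (red) is plotted with its standard error as the horizontal bar, for genes in pathway order from uptake to lactate export (top) and for 6 genes of the pentose phosphate pathway (bottom). The 7 genes marked with an asterisk passed the test, and paralogues such as SLC2A3, PFKL and PFKM did not.

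Pyruvate enters the TCA cycle through pyruvate dehydrogenase, whose activity is restored by a phosphatase with the regulatory subunit PDPR. PDPR was a suppressor, with a beta of -0.509 ± 0.0919 in EtOH and -0.0920 ± 0.0911 in CAP, a difference of 0.417 ± 0.129 (Wald difference 4.22). The subunits of the dehydrogenase itself, looked at after their values were seen, were not called and had differences of the opposite sign. For PDHB the beta was 0.279 in EtOH and -0.000841 in CAP (difference -0.280 ± 0.116, Wald difference -3.65), for PDHA1 it was 0.0641 and -0.190 (difference -0.254 ± 0.109, Wald difference -3.54), and for DLAT 0.146 and 0.0325 (difference -0.113 ± 0.0646, Wald difference -2.74). DLD and PDHX, the other members of the complex, had differences of -0.0316 ± 0.110 and -0.0453 ± 0.103. These 3 betas were above 0 in EtOH and lower in CAP, but that of PDHA1 in EtOH lay within its SE of 0 (0.0641 ± 0.0769). With the EtOH trend removed the Wald differences were -2.13 for PDHB, -2.86 for PDHA1, -0.812 for DLAT and 3.83 for PDPR. In that fit PDPR was not called either.

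IDH3B was the only one of 27 genes of pyruvate entry and the TCA cycle to be called. Its beta was -0.390 ± 0.0663 in EtOH and 0.0131 ± 0.0662 in CAP, a difference of 0.403 ± 0.0937 (Wald difference 5.73). The enzyme is a complex with the catalytic subunit IDH3A and the further subunit IDH3G, both singled out after their values were seen. IDH3A had a difference of 0.276 ± 0.132 (Wald difference 2.64) and IDH3G of 0.0188 ± 0.126, and neither was called. MDH2, the mitochondrial malate dehydrogenase, was not called either, with betas of 0.100 in EtOH and -0.0424 in CAP (difference -0.143 ± 0.117). The median difference of the list was 0.0188, and 16 of 27 genes lay above 0.

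Mitochondrial RNA is made, processed and degraded in the matrix, and PDE12 had the largest Wald difference of all genes. Its beta was -1.32 ± 0.118 in EtOH and -0.377 ± 0.117 in CAP, a difference of 0.943 ± 0.166 (Wald difference 7.66). REXO2, the exonuclease that clears short RNA fragments, went from -0.942 ± 0.0989 to -0.468 ± 0.0988, a difference of 0.474 ± 0.140 (Wald difference 4.47). C10orf2, the older name in the table for TWNK, which encodes the Twinkle helicase of mitochondrial DNA, went from -1.74 ± 0.164 to -1.02 ± 0.161, a difference of 0.720 ± 0.230 (Wald difference 4.10). With these, 3 of 30 genes of mitochondrial RNA and mtDNA were suppressors, beside 0.188% of all genes, and 27 were not called. The list's median difference was 0.112, or 0.0390 with the EtOH trend removed. PDE12 kept its call with the EtOH trend removed (Wald difference 6.93), whereas REXO2 (3.56) and C10orf2 (3.20) did not.

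Calls in the mitoribosome, the drug's own target, are given beside the 0.188% of all genes called higher, and z rule counts beside 1.13%. Of 50 proteins of the large mitoribosomal subunit only MRPL1 was a suppressor, from -0.683 ± 0.117 in EtOH to -0.191 ± 0.117 in CAP (difference 0.493 ± 0.165, Wald difference 3.88). Of 31 proteins of the small subunit none was called (2 passed the z rule), and the member with the largest Wald difference was MRPS28 (difference 0.315 ± 0.123, Wald difference 3.29). Among 28 assembly factors 1 was called, RPUSD4, which places pseudouridine in the mitochondrial large rRNA (difference 0.654 ± 0.220, Wald difference 3.87). Its beta in CAP was still -1.09, against -1.74 in EtOH.

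As groups, the mitoribosomal genes were among the most costly to lose in EtOH, with median betas of -0.702 for the large subunit, -0.726 for the small subunit and -0.801 for assembly. In CAP the medians were -0.573, -0.572 and -0.595. The median differences were 0.134, 0.150 and 0.188, and 90.0%, 93.5% and 96.4% of the members lay above 0, against 61.1% of all genes. With the trend on the EtOH beta removed, the median residuals of the 3 groups were 0.0210, 0.0684 and 0.0878.

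Mitochondrial translation factors and tRNA synthetases held no called gene, with 2 and 1 that passed the z rule (1.13% of all genes higher). The median difference was 0.185 for 24 translation factors, led by the formyltransferase of the initiator tRNA, MTFMT (difference 0.421 ± 0.165, Wald difference 3.30), and 0.187 for 18 tRNA synthetases, led by the glutamyl-tRNA synthetase EARS2 (difference 0.526 ± 0.230, Wald difference 2.93). Enzymes that modify mitochondrial tRNA, 20 in all, had a median difference of 0.0877 and were led by OSGEPL1 (difference 0.276 ± 0.120, Wald difference 2.94). With the EtOH trend removed the medians of these 3 lists fell to 0.106, 0.0653 and 0.0348.

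The respiratory complexes, which hold the subunits whose synthesis CAP blocks, showed the same kind of shift. For 55 genes of complex I and its assembly the median beta was -0.479 in EtOH and -0.277 in CAP, 50 of 55 differences lay above 0, and the median difference was 0.179. NDUFB7, a subunit of the membrane arm, was the only one called (-1.10 ± 0.123 in EtOH and -0.573 ± 0.123 in CAP, difference 0.525 ± 0.174, Wald difference 3.94). By the z rule 9 of the 55 were higher, against 1.13% of all genes. Of 37 genes of complex IV, 2 were suppressors, beside 0.188% of all genes. They were the assembly factor PET117 (difference 0.561 ± 0.186, Wald difference 3.94) and the subunit COX5A (difference 0.352 ± 0.118, Wald difference 3.91). COX4I1, which pairs with COX5A in the enzyme, lay just outside the threshold (difference 0.499 ± 0.173, Wald difference 3.75). The median difference of complex IV was 0.106, and with the EtOH trend removed the medians were 0.0912 for complex I and 0.0425 for complex IV.

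None of the 24 genes of complexes II and III was called (median difference 0.125, largest Wald difference UQCRC1 with 2.93), and none of the 21 of complex V (median difference 0.134, largest ATPAF2 with 3.66). The 13 genes of coenzyme Q synthesis had a median difference of 0.0982 and no call, with COQ6 at 1.94. With the EtOH trend removed the medians of these 3 lists were 0.0572, 0.0637 and 0.0710. By the z rule 1 gene of complexes II and III, 2 of complex V and none of coenzyme Q synthesis passed, beside 1.13% of all genes higher. MCAT, which loads malonyl groups in mitochondrial fatty acid synthesis, the route to lipoic acid, was the 1 suppressor among 23 genes of lipoylation and iron-sulfur clusters. Its beta went from -1.50 ± 0.131 to -0.934 ± 0.130 (difference 0.570 ± 0.184, Wald difference 4.05). None of MRPL1, RPUSD4, NDUFB7, PET117, COX5A and MCAT was called with the EtOH trend removed.

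**Figure D3:**
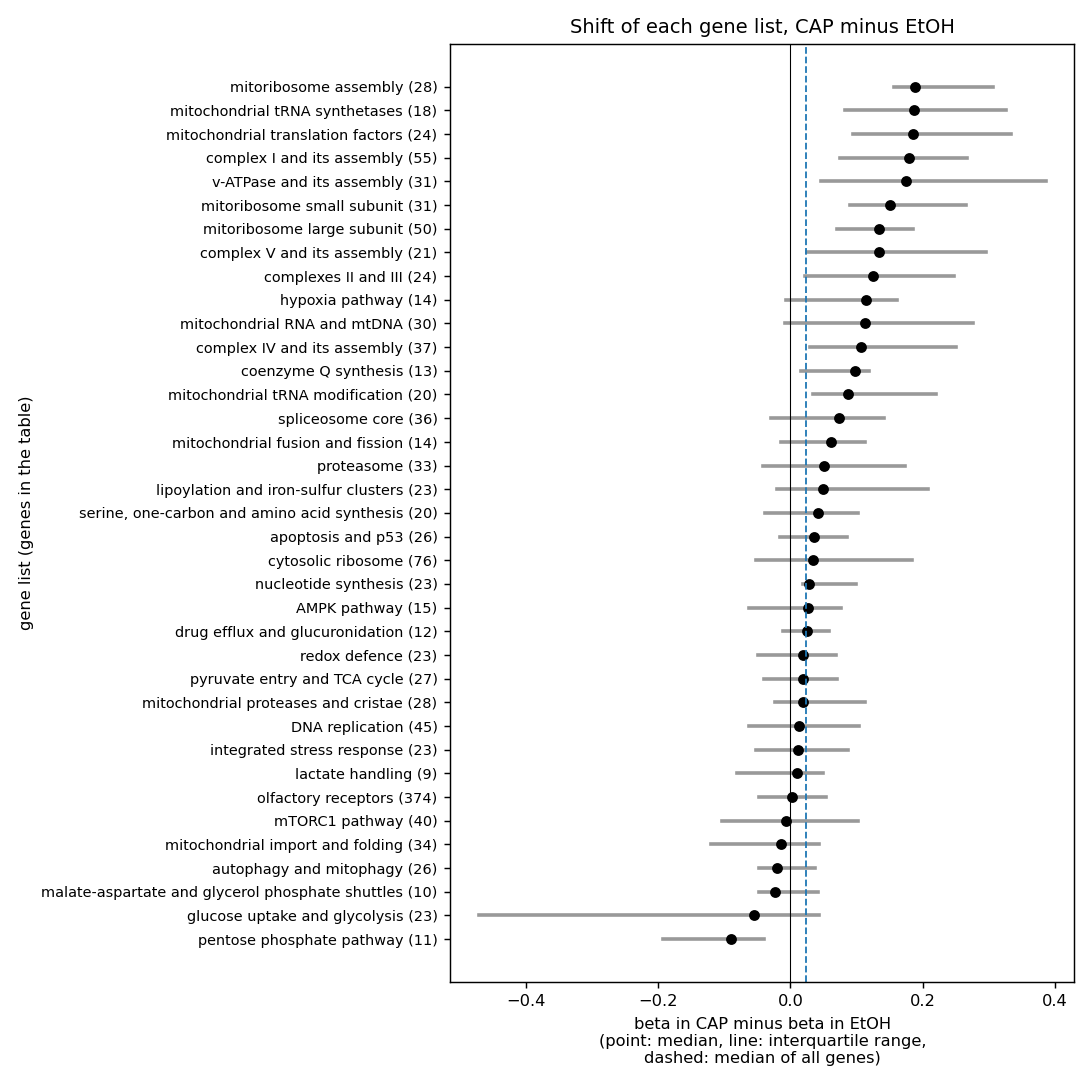
For each of 37 gene lists the point is the median, over its genes, of the beta in CAP minus the beta in EtOH, the grey line spans the interquartile range, and the dashed line is the median of all genes (0.0230). The pentose phosphate pathway (-0.0902) and glycolysis (-0.0558) lie lowest, and mitoribosome assembly (0.188) and the mitochondrial tRNA synthetases (0.187) highest, an order that changed with the EtOH trend removed, where the v-ATPase (0.135) was highest and mitochondrial import (-0.124) lay beside glycolysis (-0.122).

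Lists of genes that every dividing cell needs give the scale for these medians. The median differences were 0.0341 for 76 cytosolic ribosomal proteins, 0.0501 for 33 proteasome genes, 0.0741 for 36 spliceosome genes and 0.0124 for 45 genes of DNA replication, and none of these genes passed the test or the z rule. The largest Wald differences in them were 2.04 for RPL10A, 1.58 for PSMB3, -2.85 for SF3B3 and -2.52 for RFC3. For 374 olfactory receptors, a family best known from the sensory neurons of the nose, the median beta was -0.0958 in EtOH and -0.105 in CAP, and the median difference was 0.00196. None was called, and OR4S2 came nearest (Wald difference -3.74). By the z rule 3 of the 374 passed, beside 1.13% of all genes higher and 0.183% lower.

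The endolysosomal system sorts and degrades cargo and is acidified by the v-ATPase proton pump. ATP6AP1, an accessory subunit of that pump, went from -0.871 ± 0.127 in EtOH to -0.302 ± 0.126 in CAP (difference 0.569 ± 0.179, Wald difference 4.17). It was the only one called of the 31 v-ATPase genes on the list, which does not hold the called gene RNASEK, described below. By the z rule 10 of the 31 were higher, against 1.13% of all genes. The list's median beta was -0.320 in EtOH and -0.184 in CAP, with a median difference of 0.174 and 27 of 31 members above 0. With the EtOH trend removed its median residual was 0.135, and ATP6AP1 was not called (Wald difference 3.67). The pump's V1 subunits ATP6V1F (difference 0.405 ± 0.142, Wald difference 3.72) and ATP6V1C1 (0.390 ± 0.142, Wald difference 3.56), singled out after their values were seen, were not called.

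FIG4 and VAC14 hold the lipid kinase PIKFYVE, which makes a phosphoinositide of late endosomes. FIG4 had a beta of -0.534 ± 0.0675 in EtOH and -0.205 ± 0.0675 in CAP (difference 0.329 ± 0.0954, Wald difference 4.55), and VAC14 of -0.355 ± 0.0606 and -0.0800 ± 0.0604 (difference 0.275 ± 0.0856, Wald difference 4.22). The kinase itself, PIKFYVE, looked at after its values were seen, was not called (difference 0.0807 ± 0.119, Wald difference 0.666). WDR81, which acts in the maturation of endosomes, went from -0.521 ± 0.0701 to -0.154 ± 0.0700 (difference 0.367 ± 0.0990, Wald difference 4.90), and IST1, a member of the ESCRT-III machinery that cuts membranes, from -0.481 ± 0.0765 to -0.126 ± 0.0765 (difference 0.355 ± 0.108, Wald difference 4.31). LITAF, a protein of late endosomes (Wald difference 4.01), and RNASEK, a small membrane protein that associates with the v-ATPase (Wald difference 3.91), were also called. These genes outside the lists were grouped by function after they had been called, so their number carries no test, and with the EtOH trend removed WDR81 alone of them was called.

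E2F4, a transcription factor that represses cell cycle genes together with pocket proteins, had a beta of -0.162 ± 0.0421 in EtOH and 0.0555 ± 0.0421 in CAP (difference 0.217 ± 0.0595, Wald difference 4.83). Of 10 further genes of the E2F, DP and pocket protein families, looked at after their values were seen, none was called, and E2F3 came nearest (difference 0.420 ± 0.149, Wald difference 3.65). RB1, RBL1 and RBL2 had differences between -0.0267 and 0.0707. BEND3, a transcriptional repressor, went from -0.606 ± 0.0778 to -0.208 ± 0.0775 (difference 0.398 ± 0.110, Wald difference 4.79). Further suppressors of this kind were the chromatin remodelling subunit BPTF (Wald difference 4.07), PAGR1, a partner of histone methyltransferases (4.05), and INTS6 of the Integrator complex (3.97).

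Other suppressors lay in protein folding and membranes. HSPH1, a nucleotide exchange factor for Hsp70 chaperones, went from -0.278 ± 0.0648 to 0.0257 ± 0.0647 (difference 0.303 ± 0.0916, Wald difference 4.36). The ER membrane protein complex, which inserts proteins into the membrane of the endoplasmic reticulum, held EMC6 (difference 0.512 ± 0.165, Wald difference 4.05) and MMGT1, also called EMC5 (difference 0.502 ± 0.163, Wald difference 4.03). The other 8 members of that complex, looked at after their values were seen, were not called and ran from EMC10 (difference -0.0266) to EMC7 (difference 0.448 ± 0.167, Wald difference 3.48). DPH6, which completes the diphthamide of the elongation factor of cytosolic translation, was called (difference 0.610 ± 0.203, Wald difference 3.92), and the other 6 genes of that route were not, with differences between 0.000940 and 0.252.

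RHOQ, a small GTPase, went from -0.495 ± 0.104 to 0.0272 ± 0.104 (difference 0.522 ± 0.147, Wald difference 4.69) and ATXN2L, an RNA-binding protein of stress granules, from -0.349 ± 0.0844 to 0.0371 ± 0.0841 (difference 0.386 ± 0.119, Wald difference 4.25). DNAH9, a dynein of motile cilia, had a difference of 0.237 ± 0.0685 (Wald difference 4.56), and SULT1A4, a sulfotransferase, of 0.337 ± 0.102 (Wald difference 4.33). SULT1A4 has a near-identical copy, SULT1A3, so its guides may have cut both and its value is uncertain. The deubiquitinase USP7 (difference 0.465 ± 0.157, Wald difference 3.88) was the only call among 26 genes of apoptosis and the p53 pathway. The remaining suppressors were the acyl-CoA synthetase ACSL3 (4.03), TES (4.02), the retinal guanylate cyclase GUCY2D (3.87) and VAT1L (3.85). The study did not filter out genes of low expression in HEK293 cells. Whether a called gene is expressed in this line was not tested.

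NPRL2 was the 1 synthetic sick gene among 40 genes of the mTORC1 pathway. It belongs to GATOR1, the complex that keeps the growth kinase mTORC1 off when amino acids run short. Its beta was 0.232 ± 0.0858 in EtOH and -0.185 ± 0.0859 in CAP, a difference of -0.417 ± 0.121 (Wald difference -5.08). NPRL2 thus lay above 0 in EtOH and slightly below the median of all genes in CAP. The partners in GATOR1, looked at after their values were seen, also had betas above 0 in EtOH, 0.277 for NPRL3 and 0.218 for DEPDC5, and differences of -0.293 ± 0.124 (Wald difference -3.58) and -0.0941 ± 0.111 (-1.47) that were not called. With the EtOH trend removed NPRL2 had a Wald difference of -3.93 and was not called. In that fit NPRL3 had -2.16 and DEPDC5 0.102, so DEPDC5 no longer lay on the same side as NPRL2.

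The other synthetic sick genes outside glucose use had small betas in CAP, and that of XPO7 lay above the median of all genes (-0.139). XPO7, a nuclear transport receptor, went from 0.224 ± 0.0625 to -0.0199 ± 0.0627 (difference -0.244 ± 0.0885, Wald difference -4.14), and OSTN, which encodes a secreted peptide of muscle and bone, from 0.161 ± 0.0789 to -0.173 ± 0.0794 (difference -0.334 ± 0.112, Wald difference -4.45). ZNF300, a zinc finger gene, and SLCO6A1, of an organic anion transporter family, lay near 0 in EtOH (-0.00833 and -0.0229) and at -0.202 ± 0.0502 and -0.237 ± 0.0595 in CAP. Their Wald differences were -4.09 and -3.85.

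Several pathways tied to mitochondrial stress held no call. No gene passed among 15 of the AMPK pathway, where the kinase STK11 came nearest (0.332 in EtOH and 0.0894 in CAP, difference -0.242 ± 0.122, Wald difference -3.06). None passed among 23 of the integrated stress response (EIF2B5, Wald difference -2.13), 26 of autophagy and mitophagy (ATG5, -2.18), 23 of redox defence (TXNRD2, -2.52), 14 of the hypoxia pathway (VHL, 2.87) or 12 of drug efflux and glucuronidation (UGT1A6, -0.775). None passed among 34 of mitochondrial import and folding (MTX2, -2.85), 28 of proteases and cristae (PARL, -2.55) or 14 of fusion and fission (MIEF1, -3.40). The same held for 20 genes of serine, one-carbon and amino acid synthesis (SLC7A5, 2.28), 23 of nucleotide synthesis (RRM1, 3.58) and 10 of the malate-aspartate and glycerol phosphate shuttles (MDH2, -1.99). By the z rule 4 genes of these lists passed, in the nucleotide, hypoxia, and fusion and fission lists, beside 1.13% of all genes higher and 0.183% lower. A call took a Wald difference of at least 3.85 in size, so smaller differences were not detectable.

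The CAP values were then compared directly with those in ACT, an inhibitor of the mitochondrial peptide deformylase, and in ACT CAP. Between CAP and ACT 145 genes were called in either direction (0.759% of 19111 genes), and between CAP and ACT CAP 9 were (0.0471%). Of the 12 synthetic sick genes, HK1 and RPE were called lower in CAP than in ACT, with betas in ACT of -0.550 and -1.05. Of the 36 suppressors, MRPL1, REXO2, COX5A, MCAT and ATP6AP1 were lower in CAP than in ACT, and NDUFB7 and PET117 were higher. REXO2, for example, had a beta of 0.240 in ACT and MRPL1 of 0.516, whereas NDUFB7 (-1.15) and PET117 (-1.17) were lost in ACT as in EtOH. The CAP values that picked these genes also enter the comparisons with ACT, so the calls between CAP and ACT are not independent of that choice.

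None of the 48 genes was called between CAP and ACT CAP, where their Wald differences ran from -3.11 (HK2) to 4.05 (RPUSD4). All 36 suppressors had a higher beta in ACT CAP than in EtOH, and all 12 synthetic sick genes a lower one, which is a description, since EtOH enters each of these differences. The 9 genes called between CAP and ACT CAP were LAP3, USP51, GTPBP6, RBM15 and NME6, higher in CAP, and ATP2C1, MIEF1, PHF6 and FCHSD1, lower in CAP. MIEF1, from the fusion and fission list, had betas of -0.309 in CAP, -0.0179 in ACT CAP and -0.0753 in EtOH (Wald difference -4.42 between CAP and ACT CAP). GTPBP6, a mitoribosome recycling factor, had -0.829, -1.39 and -1.31 (Wald difference 4.55).

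By list, the direct comparison with ACT gave the following counts, to be read beside 57 of all 19111 genes higher in CAP and 88 lower. In complex I and its assembly 16 of 55 genes were higher in CAP than in ACT and none lower, and in complex IV 8 of 37 were higher and 1 lower, COX5A. In coenzyme Q synthesis 5 of 13 were higher and none lower. In the large mitoribosomal subunit none of 50 was higher and 5 were lower, in the small subunit none of 31 was called either way, in mitoribosome assembly none of 28 was higher and 5 were lower, and in the v-ATPase none of 31 was higher and 4 were lower. In glycolysis only HK1 was called, lower in CAP.

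**Figure D4:**
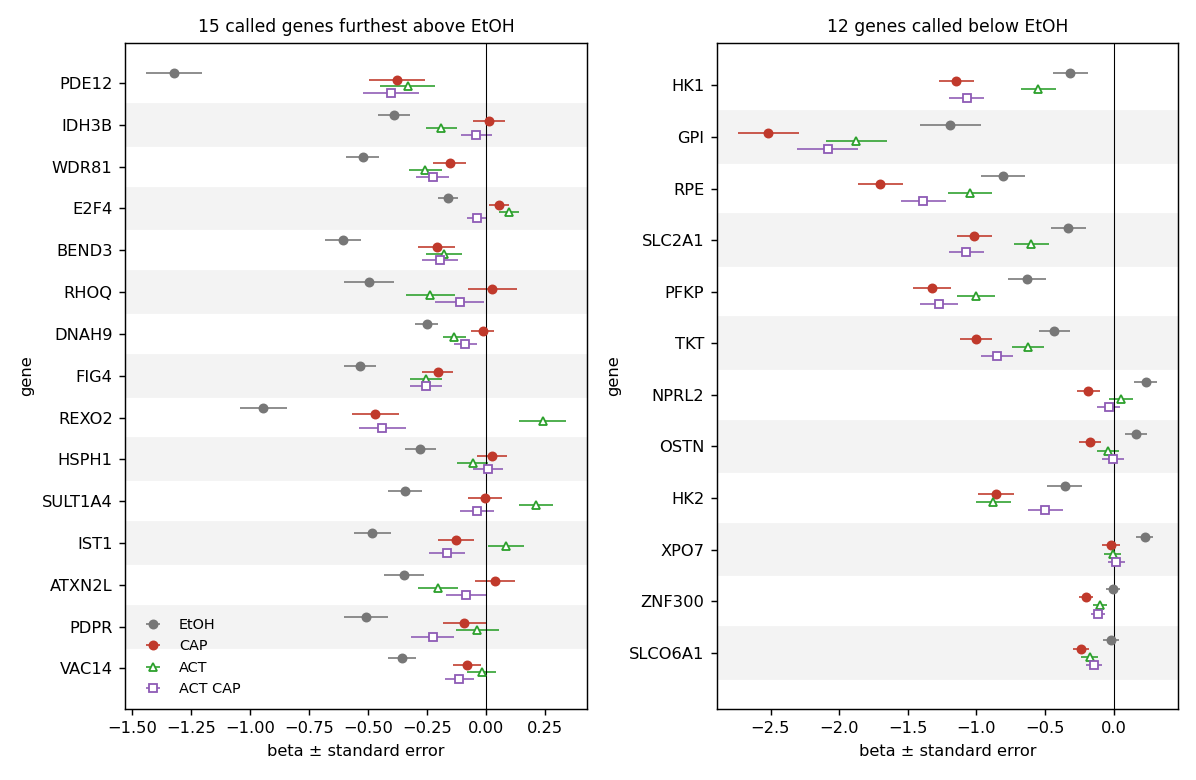
The beta ± standard error in each of the 4 conditions is plotted for the 15 suppressors with the largest Wald difference (left) and the 12 synthetic sick genes (right). The ACT CAP values (open squares) lie on the CAP side of EtOH (grey) for every gene shown, while ACT (open triangles) lies above 0 for REXO2 (0.240) and nearer to EtOH than CAP does for HK1 (-0.550).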

How the data were processed

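The readout was the abundance of guide RNAs in HEK293 cells carrying the Brunello library, with 3 replicates in each of 4 conditions. The authors ran MAGeCK (version not given in the sources used here) on the guide counts and deposited 1 table of 19112 genes. In it the beta score and the z score of each gene and condition are values of 1 fit over the replicates, so the depth of single samples was not analysed here. The authors also deposited p-values and FDRs of each condition. The Wald p-value was used only to restore z, and the others, which are the authors' own tests, were not used.

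The table had passed through a spreadsheet, and 149 z scores in EtOH and 206 in CAP stood as dates, in 313 genes. They were rebuilt from the deposited Wald p-value with the sign that beta carries, a step that came within 0.000978 of the intact z scores. The standard error was beta divided by z. In ACT 573 and in ACT CAP 218 z scores were restored in the same way, and 1 gene without an ACT beta was left out of the comparison with ACT. The CAP standard error was 0.996 to 1.01 times that of EtOH over nearly all genes, leaving out the outer 1% on each side.

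Each difference in beta was taken over its standard error, in which both conditions' errors were added in quadrature. From this ratio its median over the 19112 genes (0.199) was subtracted, and the rest was scaled by 0.715, which is 1.4826 times its median absolute deviation. The 2-sided normal p-values of the whole table received a Benjamini-Hochberg adjustment. Alternatives were an unscaled normal null, removal of a lowess trend (fraction 0.2) on the EtOH or mean beta, and the EtOH beta multiplied by the ratio of median betas over core genes. Others were the z rule of 3 with and without centring, an adjusted p of 0.01, genes with exactly 4 guides and genes with no restored z.

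The 37 gene lists were written from general knowledge, and they and the comparison itself were chosen with earlier results of these data known, so counts over lists are descriptions. A further 6 groups were formed after the values were seen. Genes named were the 15 called per direction with the largest Wald difference, up to 6 called members per direction of each list, the member with the largest Wald difference of each list with no call, and paralogues of glucose use. The remaining called genes, those next to the threshold, those called between CAP and ACT CAP and any gene marked so in the text were named after their values were seen. CARS2, SDHAF4 and COQ4 found no match. Of the symbols 19030 matched the RefSeq table of GRCh38.p14, used for names alone, and 1 gene had a date for a name. Guide sequences were not used here. Scripts ran in Python 3.11.15 with statsmodels 0.14.6, scipy 1.17.1, pandas 2.3.3, numpy 2.4.6 and matplotlib 3.10.9.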

Additional observations from a re-analysis of the deposited data

Results flagged for a closer look

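For 13 of the 71 named genes the beta in CAP differed from that in ACT by the direct test, as it did for 0.759% of 19111 genes. Most of these genes were named for their CAP minus EtOH values. The same CAP beta enters the direct test, so it is not independent of that choice. Lower in CAP than in ACT were REXO2 (Wald difference, CAP minus ACT, -6.48), MRPL1 (-5.49), VHL (-5.01), COX5A (-4.64), HK1 (-4.20), MCAT (-4.17), ATP6AP1 (-3.99) and RPE (-3.59). Higher in CAP were MDH2 (10.3), COQ6 (6.40), PET117 (5.14), NDUFB7 (4.30) and ATPAF2 (3.79). MDH2 had the largest Wald difference between CAP and ACT, with a beta of -0.980 in ACT, -0.0424 in CAP and 0.100 in EtOH. VHL, the factor that marks hypoxia-inducible factors for degradation, had betas of 0.436 in ACT, -0.169 in CAP and -0.518 in EtOH. MDH2, COQ6, ATPAF2 and VHL were not called between CAP and EtOH.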

How the results depend on the processing

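No paired analysis was possible because the table holds 1 value per gene and condition, and for the same reason no replicate could be left out. CAP gave 36 suppressors and 12 synthetic sick genes. With a normal null that was not scaled 1 and 1 passed, and at an adjusted p of 0.01 there were 9 and 8. With the trend on the EtOH beta removed 12 were higher and 11 lower, with that on the mean beta 18 and 11, and with the EtOH beta scaled by 0.861 also 18 and 11. The z rule gave 216 and 35, and 143 and 56 with z centred. Suppressors were 75% of calls, 52.2% with the EtOH trend removed, 52.9% at an adjusted p of 0.01, 62.1% with the mean trend removed or with the scaled EtOH beta, 86.1% by the z rule and 50% by the unscaled null. Genes with exactly 4 guides gave 36 and 12, and genes with no restored z 34 and 11. Between CAP and ACT the count was 145, 26 against the unscaled null and 90 at an adjusted p of 0.01, and between CAP and ACT CAP it was 9, 0 against the unscaled null (96 at an unadjusted normal p of 0.05) and 1 at 0.01. No named gene that was called turned its sign. PGP, FBXW7, SRF and TPI1 were called lower, and KLF10 higher, once the EtOH trend was removed, and were not called with the trend left in.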
